A study of Mus musculus with 6 samples.

Results

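The data compare 2 blood progenitors sorted from the bone marrow of mice with 1 disrupted copy of Mof, the lysine acetyltransferase (gene symbol Kat8) that acetylates histone H4. The common myeloid progenitor (CMP) is compared with the megakaryocyte-erythroid progenitor (MEP). The members are the 3 heterozygous CMP and the 3 heterozygous MEP libraries, 6 of the 36 libraries of the series, chosen by the population and genotype given with each library. Both populations came from the same heterozygous pool of late progenitors, whose genotype the labels give as Mof -/+, so the contrast crosses neither genotype nor pool. Each library was made by CEL-Seq2, a method that reads messenger RNA from its 3' end, from a sort of 15 cells. CMP were gated as Lin- Sca-1- cKit+ CD34+ IL7r- cells with low CD16/32. MEP were gated as Lin- Sca-1- cKit+ IL7r- cells without CD34 or CD16/32. The gates thus set the populations apart by CD34 and the Fc gamma receptors, and held the lineage antigens, Sca-1, cKit and IL7r alike in both. A second set of 6 libraries, wild-type CMP and MEP from the wild-type late progenitor pool, serves below only to ask whether the same difference appears without the Mof mutation. The labels do not give the structure of the Mof allele, the age or number of the mice, or whether the libraries of a group are of different animals. The p-values therefore rest on spread between libraries, which may be technical. For each gene that spread was taken mostly from a trend over all tested genes. Because each library is the RNA of a small bulk sort, fewer cells of a type and less RNA per cell cannot be told apart.

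As background, CMP and MEP are neighbouring stages of blood formation. In the standard scheme CMP give rise to MEP as well as to granulocytes and monocytes. CMP begin to transcribe the enzymes that will later fill neutrophil granules, under factors such as PU.1 and C/EBPalpha. MEP give rise to red cells and platelets. Their erythroid branch is directed by Gata1 and Klf1, which switch on carbonic anhydrases, water channels, blood group proteins and, later, heme synthesis and globins.

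The heterozygous CMP libraries held 61631, 89116 and 123765 counts, and the MEP libraries 77136, 75108 and 87730. Between 8214 and 9359 genes were detected per CMP library and between 8364 and 8745 per MEP library. Levels are in CPM (each library's counts brought to a common total), a scale on which 1 count was worth 8.08 to 16.2 CPM in CMP and 11.4 to 13.3 CPM in MEP. Log2 differences are CMP minus MEP on log2(scaled count + 1), tested with limma over all genes with Benjamini-Hochberg adjustment, and a gene is said to be called at an adjusted p under 0.05. Correlations of log2 profiles (across genes, which are not independent replicates) ran from 0.76 to 0.83 within CMP, from 0.76 to 0.77 within MEP and from 0.72 to 0.79 between them. By this measure libraries of the 2 populations were nearly as alike as libraries of the same one. It took in genes down to a mean scaled count of 1, and the part of counting error in these values was not tested.

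Genes called higher in heterozygous CMP included Mpo, Elane, Ctsg and Prtn3, which encode granule proteins of neutrophil precursors. Those called higher in heterozygous MEP included the carbonic anhydrases Car1 and Car2, the erythroid membrane proteins Ermap and Aqp1 and the transcription factor Klf1. Mpo was 5.51-fold higher in CMP, Elane 12.5-fold and Ctsg 5.14-fold, by ratio of mean CPM. Car1 was 12.1-fold higher in MEP, Klf1 5.92-fold and Aqp1 3.20-fold. Limma called 21 of 8152 genes, or 0.258%. Of these, 11 were higher in CMP (0.135% of genes tested) and 10 were higher in MEP (0.123%). In all 21 the 3 libraries of one population lay above the 3 of the other, which also held for 6.77% of all tested genes in the direction of CMP and 5.8% in the direction of MEP. On the authors' own scale, which shifted the median of all genes from 0.04 to 0.16, 26 genes were called higher in CMP and 10 in MEP. Without heterozygous CMP replicate 3, the deepest library, 13 genes were called.

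**Figure D1:**
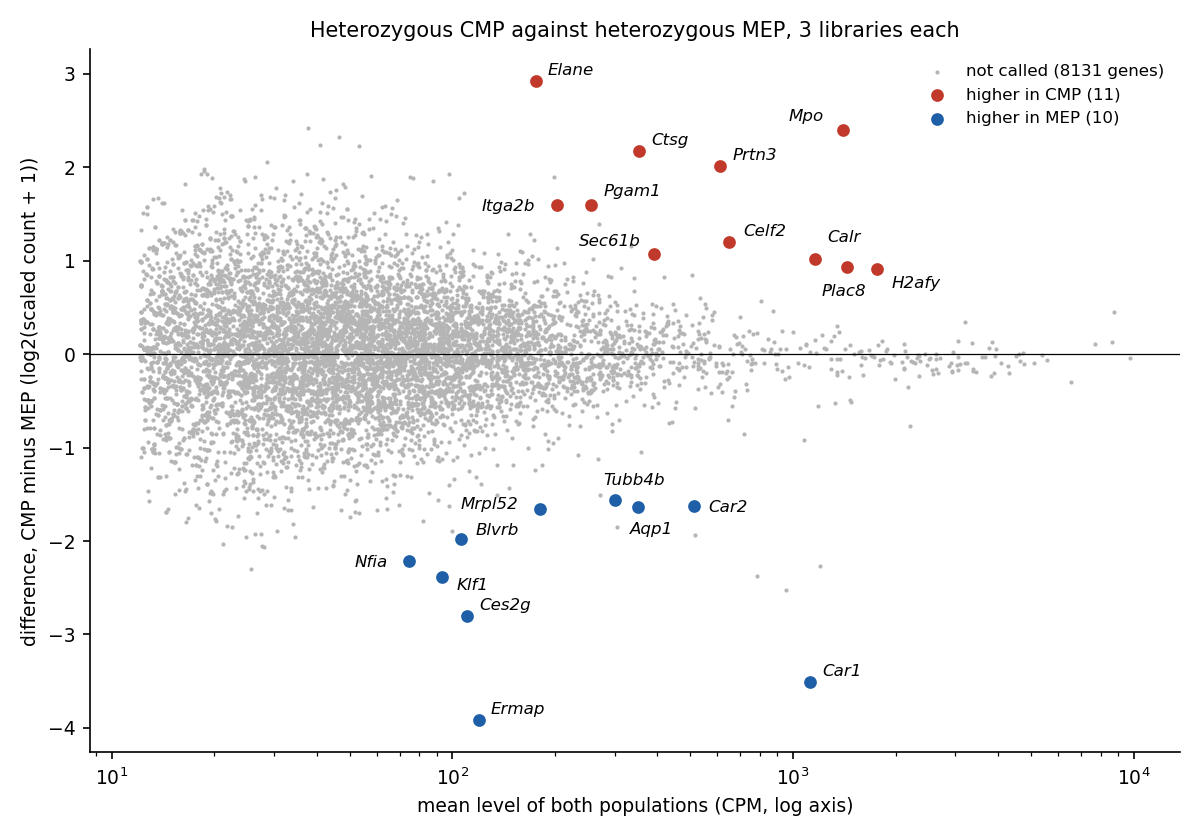
Each point is 1 of the 8152 genes tested; the x axis is the mean level over both populations (CPM, log axis) and the y axis the difference CMP minus MEP (log2 of scaled count + 1). Red points are the 11 genes called higher in CMP and blue points the 10 called higher in MEP; Elane (2.92) and Ermap (-3.92) are the outermost called genes.

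The labels were checked against 7 myeloid and 7 erythroid markers. Of the myeloid markers, Mpo, Elane, Ctsg and Prtn3 were called higher in CMP. Cebpa, which encodes C/EBPalpha, had 64.9, 135 and 80.8 CPM in CMP and 13, 26.6 and 34.2 in MEP (1.51 log2, adjusted p = 0.322). Flt3 (0.14, adjusted p = 0.985) and Cd34 (0.84, adjusted p = 0.49) were not called. Of the erythroid markers, Car1, Car2 and Klf1 were called higher in MEP. The erythropoietin receptor Epor had 32.5, 22.4 and 8.08 CPM in CMP and 77.8, 66.6 and 103 in MEP (-1.57, adjusted p = 0.322). Cebpa and Epor thus separated the groups without overlap but did not pass. Gata1 (-1.01), Gfi1b (-0.51) and the transferrin receptor Tfrc (-0.55) were not called either, with adjusted p of 0.351, 0.873 and 0.842. The 7 called markers all lay on the side that each label names.

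Before the values, promoter sequences of 3 genes higher in CMP are printed because these genes had the largest differences of those called higher in CMP. They come from RefSeq (GRCm38.p6), are written 5′ to 3′ on the gene's strand, and stop at the base before the annotated gene. Capitals mark the word GAGGAA, the core that PU.1 and related Ets factors recognise. The stretches are those of Mpo (chr11:87793534-87793580, plus strand), Elane (chr10:79886062-79886246, plus strand) and Ctsg (chr14:56102575-56102824, minus strand).
Mpo: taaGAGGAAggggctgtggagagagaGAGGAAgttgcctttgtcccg
Elane: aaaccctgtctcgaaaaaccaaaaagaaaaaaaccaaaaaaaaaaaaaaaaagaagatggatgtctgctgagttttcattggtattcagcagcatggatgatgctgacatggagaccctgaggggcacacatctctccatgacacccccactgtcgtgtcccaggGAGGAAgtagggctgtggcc
Ctsg: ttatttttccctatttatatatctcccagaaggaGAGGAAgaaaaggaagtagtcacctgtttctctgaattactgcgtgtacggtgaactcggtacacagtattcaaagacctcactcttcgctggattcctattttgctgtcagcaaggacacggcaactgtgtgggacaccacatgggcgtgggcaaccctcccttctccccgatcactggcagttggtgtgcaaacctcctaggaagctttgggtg

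The word was searched on both strands in the 250 bases before each RefSeq start. Of the 21 called genes 19 had a RefSeq promoter, and several had more than 1. GAGGAA stood in 8 of the 16 promoters of genes higher in CMP (50%), which belonged to 8 of the 11 genes, and in 23.3% of all 32851 promoters. It stood in 2 of the 9 promoters of genes higher in MEP (22.2%). A match is a description of letters and not of binding.

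Mpo encodes myeloperoxidase, the heme enzyme of neutrophil and monocyte granules. It lies on chromosome 11 from 87793581 to 87804413 (mm10, plus strand). Its level was 2109, 1582 and 3434 CPM in the 3 CMP libraries and 544, 293 and 456 CPM in the 3 MEP libraries. Every CMP library was above every MEP library, and Mpo was present in all MEP libraries too. The means were 2375 ± 954 and 431 ± 128 CPM (SD, n = 3 each), and the difference was 2.40 log2 (SE 0.21, limma adjusted p = 1.07e-12).

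Elane, Ctsg and Prtn3 encode neutrophil elastase, cathepsin G and proteinase 3, the serine proteases stored beside myeloperoxidase in azurophil granules. Elane had 373, 67.3 and 533 CPM in CMP and 13, 53.3 and 11.4 in MEP. CMP replicate 2 was low and stood close to the highest MEP library, although the groups did not overlap. The means were 325 ± 237 and 25.9 ± 23.7 CPM (SD, n = 3 each), with a difference of 2.92 (SE 0.49, adjusted p = 2.50e-04). Elane lost its call without CMP replicate 1 (adjusted p = 0.0872) or CMP replicate 3 (0.335).

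Ctsg had 584, 314 and 873 CPM in CMP and 117, 79.9 and 148 in MEP, again with CMP replicate 2 lowest and replicate 3 highest. Its means were 590 ± 279 and 115 ± 34.2 CPM (SD, n = 3 each; 2.17 log2, SE 0.31, adjusted p = 5.76e-06). Prtn3 had 617, 808 and 1584 CPM in CMP and 259, 200 and 205 in MEP. For Prtn3 CMP replicate 2 was not the lowest library, so the proteases did not keep one order over the CMP libraries. The Prtn3 means were 1003 ± 512 and 221 ± 32.9 CPM (SD, n = 3 each), a 4.53-fold ratio (2.01 log2, SE 0.25, adjusted p = 3.11e-07). Elane (79886247 to 79888215) and Prtn3 (79874476 to 79883174) are neighbours on the plus strand of chromosome 10, and Ctsg lies on chromosome 14 from 56099881 to 56102574 on the minus strand.

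**Figure D2:**
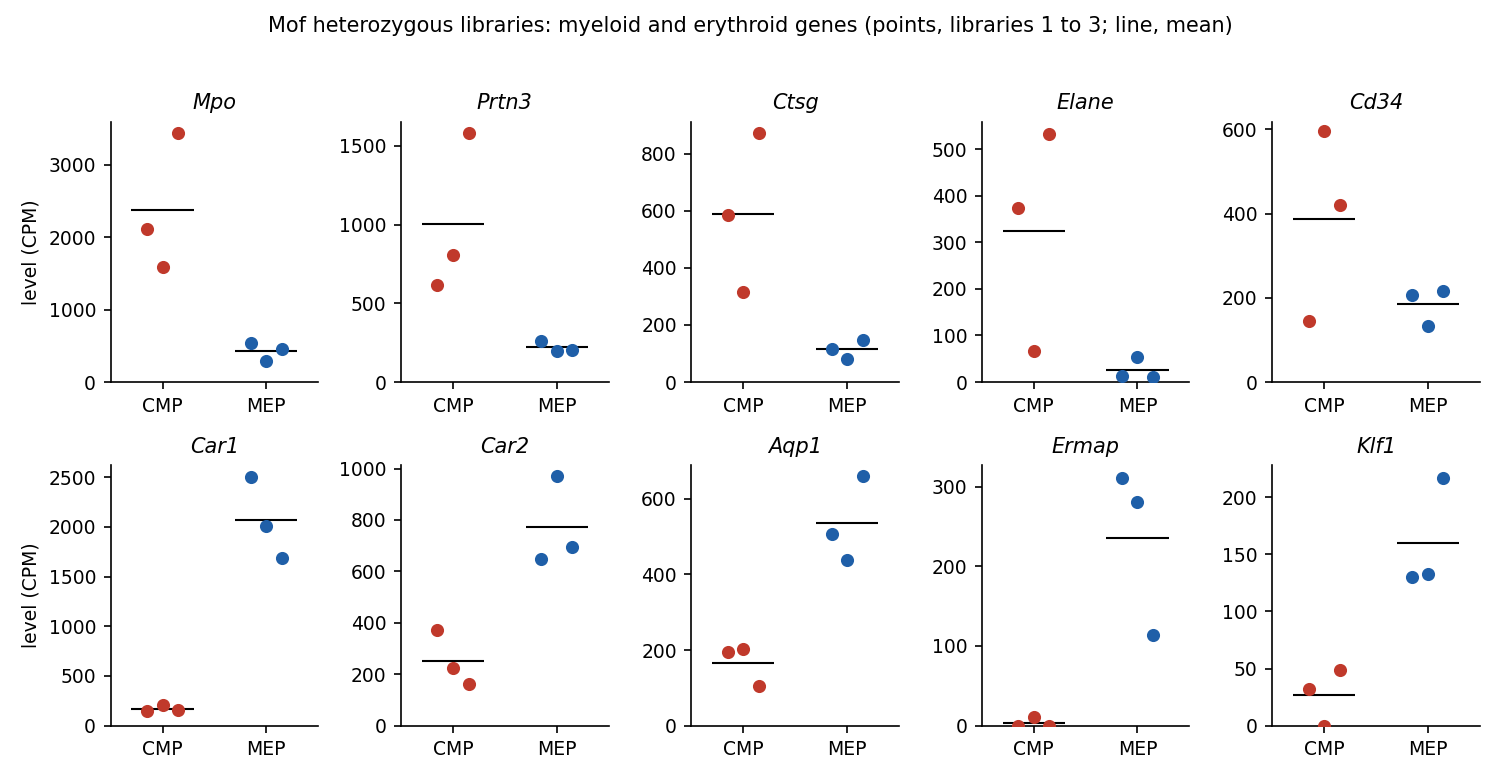
Each panel gives the level of 1 gene (CPM, axis from 0) in the 3 heterozygous CMP (red) and 3 heterozygous MEP libraries (blue), with a line at the mean. In the upper row Mpo, Prtn3, Ctsg and Elane are higher in every CMP library while Cd34 overlaps, since CMP replicate 1 (146 CPM) lies within the MEP range (133 to 217); in the lower row Car1, Car2, Aqp1, Ermap and Klf1 are higher in every MEP library.

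The list of 19 myeloid granule and secretory genes had 6 members called higher in CMP and none lower. Limma called 0.135% of all tested genes higher in CMP. The list's median was 0.93 log2 against 0.04 for all tested genes. The list was chosen with earlier results of these data known and holds the marker Mpo, so its values are a description. In 16 of the 19 the difference was above 0, as it was in 53.2% of all genes. The other called members were Calr and Plac8. Calr, the calcium-binding chaperone calreticulin of the endoplasmic reticulum, had 1785, 1234 and 1640 CPM in CMP and 959, 666 and 661 in MEP (1.02, SE 0.18, adjusted p = 4.84e-04). Plac8, a small cysteine-rich protein of myeloid cells, had 1493, 1852 and 2351 CPM in CMP and 907, 945 and 1071 in MEP (0.93, SE 0.17, adjusted p = 4.84e-04). For both, every CMP library was above every MEP library, and both lost the call without CMP replicate 3 (adjusted p = 0.0648 for Calr and 0.124 for Plac8).

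Among the members that were not called, the granule proteoglycan Srgn was abundant in both populations, at 1623, 1571 and 1252 CPM in CMP and 1180, 1278 and 1277 in MEP (0.24, adjusted p = 0.765). Ms4a3, a membrane protein of granulocyte-monocyte progenitors, had 130, 11.2 and 178 CPM in CMP and 13, 0 and 68.4 in MEP (1.56, adjusted p = 0.504), low in the same CMP replicate 2 as Elane and Ctsg. Lysozymes Lyz1 (-0.10) and Lyz2 (-0.36) and haptoglobin Hp (-0.57) were not called and are also made by mature cells. Summed over the list, CMP held 9881, 9000 and 13396 CPM and MEP 4771, 4300 and 6645, a 2.05-fold ratio of means without overlap.

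Among regulators of the myeloid branch no call was made, where limma called 0.258% of all tested genes. Of 19 tested myeloid transcription factors and receptors, 0 were called in either direction by limma, and their median was 0.08. The highest positive difference of the list was that of Cebpa, given above. Irf8, a monocyte and dendritic cell factor, had 32.5, 572 and 137 CPM in CMP and 143, 359 and 68.4 in MEP (-0.08, a direction that turns under several alternatives), with a wide spread inside both groups. The receptors for colony-stimulating factors Csf1r (-0.25), Csf2ra (0.24), Csf2rb (0.64) and Csf3r (-0.30) had adjusted p from 0.778 to 0.964. Myb, a factor of immature progenitors, differed by -0.07 (adjusted p = 0.966), also turning in sign under some alternatives.

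Besides the granule genes, 5 genes were called higher in CMP. Celf2 encodes an RNA-binding protein that regulates splicing and translation. It had 876, 965 and 873 CPM in CMP and 337, 373 and 456 in MEP, tight in CMP and without overlap (1.20, SE 0.21, adjusted p = 4.53e-04). H2afy, which encodes the histone variant macroH2A1, had 1314, 2940 and 2788 CPM in CMP and 1296, 1198 and 1026 in MEP. CMP replicate 1 was barely above the highest MEP library, while the other 2 CMP libraries were far above it (0.91, SE 0.18, adjusted p = 0.00316). H2afy lost its call without CMP replicate 2 (adjusted p = 0.327), CMP replicate 3 (0.465) or MEP replicate 3 (0.0847).

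Itga2b encodes integrin alpha IIb (CD41), a receptor of platelets, megakaryocytes and early progenitors. It had 406, 224 and 267 CPM in CMP and 207, 53.3 and 57.0 in MEP (1.60, SE 0.37, adjusted p = 0.0255). MEP replicate 1 came near the lowest CMP library. The call was lost in 5 of the 6 fits that left out a library, without CMP replicate 1 (adjusted p = 0.489), CMP replicate 2 (0.0701), CMP replicate 3 (0.402), MEP replicate 2 (0.265) or MEP replicate 3 (0.247). Pgam1, the glycolytic phosphoglycerate mutase, had 341, 325 and 469 CPM in CMP and 64.8, 93.2 and 239 in MEP (1.60, SE 0.33, adjusted p = 0.00613). It was lost without CMP replicate 1 (0.0872), CMP replicate 3 (0.46), MEP replicate 1 (0.124) or MEP replicate 2 (0.0554). Sec61b, a subunit of the channel that takes proteins into the endoplasmic reticulum, had 535, 438 and 630 CPM in CMP and 233, 293 and 217 in MEP (1.07, SE 0.25, adjusted p = 0.0353). Its call was lost without CMP replicate 1 (0.179), CMP replicate 2 (0.0636), CMP replicate 3 (0.465), MEP replicate 1 (0.11) or MEP replicate 3 (0.176).

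On the erythroid side, promoters of 3 genes higher in MEP are printed because a GATA word stands in each. Capitals mark AGATAA or TGATAA, the words bound by Gata1 and Gata2, or their reverse complements. The stretches are those of Klf1 (chr8:84901732-84901927, plus strand), Ermap (chr4:119190012-119190245, minus strand) and Ces2g (chr8:104961468-104961717, plus strand), from RefSeq (GRCm38.p6).
Klf1: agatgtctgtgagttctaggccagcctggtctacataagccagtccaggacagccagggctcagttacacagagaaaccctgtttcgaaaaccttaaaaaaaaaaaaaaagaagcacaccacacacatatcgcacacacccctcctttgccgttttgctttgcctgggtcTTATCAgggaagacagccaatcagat
Ermap: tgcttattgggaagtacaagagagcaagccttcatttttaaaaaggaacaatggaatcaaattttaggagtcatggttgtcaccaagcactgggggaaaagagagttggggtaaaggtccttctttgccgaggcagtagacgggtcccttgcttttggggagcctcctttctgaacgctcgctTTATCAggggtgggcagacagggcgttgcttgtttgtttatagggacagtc
Ces2g: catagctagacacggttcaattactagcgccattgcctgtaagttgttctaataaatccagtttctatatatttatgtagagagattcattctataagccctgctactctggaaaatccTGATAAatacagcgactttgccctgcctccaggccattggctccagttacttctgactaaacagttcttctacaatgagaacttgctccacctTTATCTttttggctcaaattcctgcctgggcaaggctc

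These were the 3 of the 9 promoters of genes higher in MEP that held either GATA word within 250 bases (33.3%), against 16.6% of all promoters and 1 of the 16 promoters of genes higher in CMP (6.25%). The words AGATAA and TGATAA both end in GATAA and cannot share a position. CCACCC, the word that Klf1 recognises, stood in 44.4% of the promoters of genes higher in MEP, in 31.2% of those of genes higher in CMP and in 28.1% of all promoters. Counted by gene the order turned, with 3 of 8 genes higher in MEP (37.5%) and 5 of 11 higher in CMP (45.5%). Car1 and Car2 are named without a promoter.

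Car1 and Car2 encode carbonic anhydrases of red cells, which interconvert carbon dioxide and bicarbonate, and lie near each other on chromosome 3. Car1 (14766216 to 14808368, minus strand) had 146, 213 and 154 CPM in CMP and 2502, 2010 and 1687 in MEP. It had the smallest adjusted p of all tested genes, and no CMP library exceeded 213 CPM. The means were 171 ± 36.8 and 2067 ± 410 CPM (SD, n = 3 each; -3.51 log2, SE 0.22, adjusted p = 1.10e-18). Car2 (14886273 to 14900770, plus strand) had 373, 224 and 162 CPM in CMP and 648, 972 and 695 in MEP, a 3.05-fold ratio (-1.62, SE 0.25, adjusted p = 5.42e-05). The difference in Car2 was the smaller, with a level in CMP above that of Car1 on average.

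Ermap encodes an erythroid membrane protein that carries the Scianna blood group. It had 0, 11.2 and 0 CPM in CMP and 311, 280 and 114 in MEP, the largest difference of any called gene (-3.92, SE 0.52, adjusted p = 1.02e-06). In counts, CMP held 1 of 274512 and MEP 55 of 239974, a ratio of 62.9 (exact 95% interval 10.8 to 2530, counting error only). Aqp1, the red cell water channel, had 195, 202 and 105 CPM in CMP and 506, 439 and 661 in MEP (-1.64, SE 0.28, adjusted p = 2.72e-04). Blvrb, a biliverdin reductase of erythroid cells, had 16.2, 56.1 and 40.4 CPM in CMP and 156, 160 and 205 in MEP (-1.98, SE 0.43, adjusted p = 0.0118). Ermap and Aqp1 kept their calls in every fit without 1 library. Blvrb kept its call only without CMP replicate 2, and its adjusted p reached 0.129 without CMP replicate 1, 0.0968 without CMP replicate 3, 0.0537 without MEP replicate 1, 0.0578 without MEP replicate 2 and 0.172 without MEP replicate 3.

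These 5 genes were the called members of a list of 21 early erythroid enzymes and membrane proteins, whose median was -0.93. Limma called 0.123% of all tested genes higher in MEP. This list too was chosen with earlier results of these data known. In 10 of the 21 every MEP library lay above every CMP library, against 5.8% of all tested genes, and none lay the other way. The summed level was 2049 ± 432 CPM in CMP and 6134 ± 237 in MEP (SD, n = 3 each), a 2.99-fold ratio. Rhag, the ammonia channel subunit of the Rh complex, had 0, 0 and 8.08 CPM in CMP and 64.8, 53.3 and 22.8 in MEP without overlap (-1.96, adjusted p = 0.322). Apoe, the lipid carrier apolipoprotein E, had 454, 774 and 339 CPM in CMP and 765, 905 and 1071 in MEP (-0.86, adjusted p = 0.0763), with CMP replicate 2 just above the lowest MEP library.

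Of 17 erythroid transcription factors and receptors, Klf1 and Nfia were called higher in MEP and none in CMP, and the median was -0.48. Over all tested genes 0.123% were called higher in MEP. Klf1, the zinc finger factor that activates adult globin and many red cell genes, had 32.5, 0 and 48.5 CPM in CMP and 130, 133 and 217 in MEP. The lowest MEP library stood well above the highest CMP library, with means of 27.0 ± 24.7 and 160 ± 49.2 CPM (SD, n = 3 each; -2.39, SE 0.50, adjusted p = 0.00689). Klf1 lost its call without CMP replicate 2 (adjusted p = 0.186) or MEP replicate 3 (0.176). Nfia, a nuclear factor I protein linked to the erythroid choice over the granulocytic one, had 32.5, 11.2 and 8.08 CPM in CMP and 233, 93.2 and 68.4 in MEP (-2.21, SE 0.52, adjusted p = 0.0353). It was called in 2 of the 6 fits with a library left out and lost without CMP replicate 2 (0.176), CMP replicate 3 (0.425), MEP replicate 1 (0.458) or MEP replicate 2 (0.0892).

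Gata1 itself overlapped. It had 227, 67.3 and 97 CPM in CMP and 181, 253 and 319 in MEP, CMP replicate 1 lying inside the MEP range. The same CMP library was the highest CMP library for Itga2b, for the platelet chemokine Pf4, chosen after its values were seen (714 CPM, against 224 and 40.4 in the other CMP libraries) and for Gfi1b (97.4 CPM, against 22.4 and 16.2). Gata2, the factor that precedes Gata1, was abundant in both populations, at 665, 471 and 549 CPM in CMP and 415, 413 and 524 in MEP (0.31, adjusted p = 0.79). The pseudokinase Trib2 had 48.7, 44.9 and 48.5 CPM in CMP and 130, 120 and 194 in MEP without overlap (-1.40, adjusted p = 0.202).

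Later erythroid steps were scarce in these libraries. Of 11 globin and heme synthesis genes 0 were called by limma (median -0.64), against 0.258% of all tested genes. The sum of the list was 357 to 452 CPM in CMP and 346 to 946 in MEP. The beta globin transcript listed as Beta-s had 0, 67.3 and 0 CPM in CMP and 0, 13.3 and 308 in MEP, so it was high in MEP replicate 3 alone. Of 11 iron and metallothionein genes 0 were called (median -1.10), against the same 0.258% of all tested genes. Mt2 had no count in CMP and 130, 13.3 and 22.8 CPM in MEP (limma adjusted p = 0.334). With a floor of 3 counts over the CMP libraries, Mt2 was 4.96-fold higher in MEP. Its partner Mt1 had 64.9, 33.7 and 80.8 CPM in CMP and 207, 79.9 and 205 in MEP (-1.25, adjusted p = 0.322), and the groups overlapped by 1 library.

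Of the remaining genes called higher in MEP, Ces2g encodes a carboxylesterase. It had 0, 22.4 and 40.4 CPM in CMP and 311, 107 and 182 in MEP (-2.80, SE 0.50, adjusted p = 4.84e-04), and lost its call without MEP replicate 1 (0.0701). Mrpl52, a protein of the mitochondrial ribosome, had 97.4, 33.7 and 129 CPM in CMP and 285, 320 and 217 in MEP (-1.66, SE 0.37, adjusted p = 0.0139). It lost its call without CMP replicate 2 (0.325), MEP replicate 1 (0.108) or MEP replicate 2 (0.179). Both separated the groups in every library.

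Tubb4b, a beta tubulin of the spindle, had 97.4, 168 and 178 CPM in CMP and 337, 466 and 559 in MEP (-1.56, SE 0.29, adjusted p = 0.00126), and lost its call without MEP replicate 3 (0.0664). It was the called member among 24 genes of mitosis and G2/M, whose median was -0.74. In 3 of the 24 the difference was above 0, as it was in 53.2% of all tested genes. In 10 of the 24, all MEP libraries lay above all CMP libraries, as they did in 5.8% of all tested genes. The sum of the list was 3984 ± 237 CPM in CMP and 5625 ± 572 in MEP (SD, n = 3 each), a 1.41-fold ratio. The proliferation antigen Mki67 had 130, 168 and 186 CPM in CMP and 285, 519 and 319 in MEP. Mki67 did not pass limma (-1.12, adjusted p = 0.087) and passed edgeR's quasi-likelihood test on the counts (adjusted p = 0.0346). The mitotic kinase Plk1 had 0, 11.2 and 16.2 CPM in CMP and 64.8, 66.6 and 45.6 in MEP (-1.82, adjusted p = 0.317), without overlap. DNA replication genes showed the opposite sign, with a median of 0.19 and 19 of 24 above 0, against 53.2% of all tested genes. Limma called 0 of the 24 and 0.258% of all tested genes.

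EdgeR's count test called 23 of 1602 genes (1.44%), 12 higher in CMP (0.749%) and 11 in MEP (0.687%), and the 17 limma calls that passed its filter were among them. DESeq2 called 13 of 3042 genes (0.427%), 7 higher in CMP (0.23%) and 6 in MEP (0.197%), all among limma's calls. The genes that edgeR alone called were chosen after their values were seen. They were Cd93, a receptor of early progenitors (146, 572 and 485 CPM in CMP, 207, 66.6 and 137 in MEP, edgeR adjusted p = 0.0156, with overlap), the signal peptide peptidase H13 (0.0476), Mki67, the antioxidant enzyme Prdx6 (0.0156), Tnfaip2 (0.0349) and the glucosylceramide synthase Ugcg (0.0278). Cd93 and H13 were higher in CMP and the other 4 in MEP. Prdx6 had 243, 202 and 242 CPM in CMP and 506, 533 and 422 in MEP.

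Of the sorting antigens, Cd34 and Fcgr3 had more RNA on average in CMP, and neither difference passed. Cd34 (chromosome 1, 194938819 to 194961279, plus strand) had 146, 595 and 420 CPM in CMP and 207, 133 and 217 in MEP. CMP replicate 1 lay inside the MEP range. The means were 387 ± 226 and 186 ± 45.8 CPM (SD, n = 3 each), a 2.08-fold ratio with a difference of 0.84 log2 (SE 0.33, 95% interval 0.18 to 1.49) that did not pass over all genes (limma adjusted p = 0.49). Without CMP replicate 1 it was 1.40 and passed (adjusted p = 0.0394). Cells gated as CD34-negative MEP thus held Cd34 counts in all 3 heterozygous libraries, 45 in total against 114 in CMP.

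Fcgr3, which encodes the CD16 part of the CD16/32 antigen, had 162, 22.4 and 48.5 CPM in CMP and 0, 0 and 11.4 in MEP. All CMP libraries were above all MEP libraries, in the direction of the gate, and the difference of 2.24 did not pass (adjusted p = 0.175). Fcgr2b differed by 0.55 (adjusted p = 0.905). Kit, required by both gates, had 292, 449 and 364 CPM in CMP and 480, 373 and 559 in MEP (-0.35, adjusted p = 0.778), with overlapping groups.

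**Figure D3:**
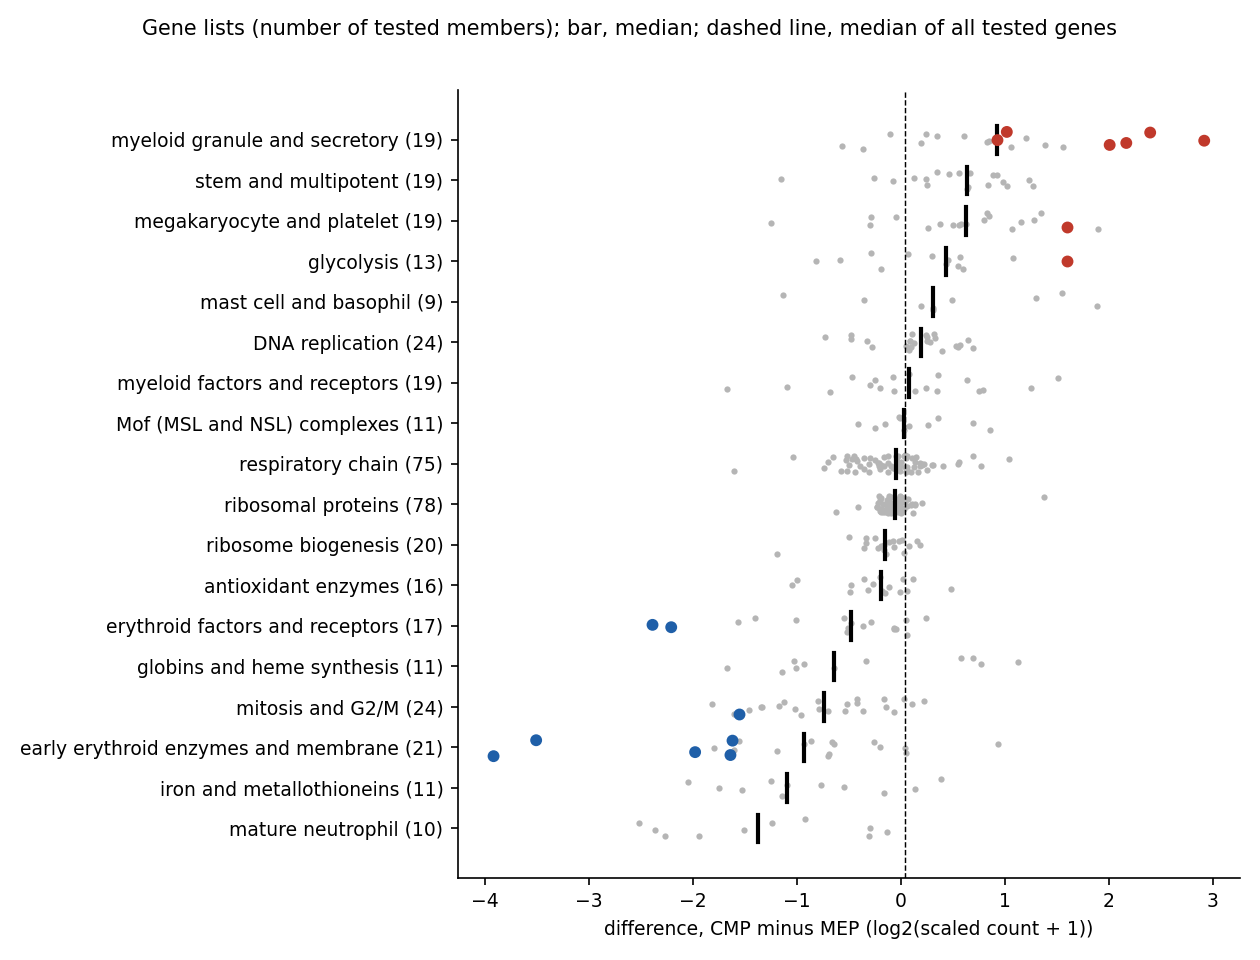
Each row is a gene list with the number of its tested members in brackets; each point is a member's difference CMP minus MEP (log2 of scaled count + 1), coloured where called, the bar is the list's median and the dashed line the median of all tested genes (0.04). Granule genes lie to the right (median 0.93, 6 called in red) and early erythroid genes to the left (median -0.93, 5 called in blue), while ribosomal protein genes sit near the dashed line (median -0.06). The lists were chosen with earlier results of these data known.

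Megakaryocyte and stem cell genes had medians above that of all genes, with 1 call between them, where limma called 0.258% of all tested genes. Of 19 megakaryocyte and platelet genes, 15 were above 0, against 53.2% of all tested genes. Their median was 0.63, with Itga2b as the called member. Fli1, an Ets factor of megakaryocytes, had 292, 180 and 162 CPM in CMP and 104, 93.2 and 45.6 in MEP (1.28, adjusted p = 0.175). It separated the groups. The sum of the list was 4040, 2177 and 1535 CPM in CMP and 1828, 972 and 1094 in MEP, so CMP replicate 1 was highest and CMP replicate 3 lay below MEP replicate 1.

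Of 19 stem and multipotent progenitor genes, 16 were above 0, against 53.2% of all tested genes, with a median of 0.64. Limma called 0 of the 19 and 0.258% of all tested genes. The sum of the list did not overlap, at 3894, 4197 and 3636 CPM in CMP and 2735, 3062 and 2679 in MEP. The interferon-induced membrane protein Ifitm1 had 471, 325 and 259 CPM in CMP and 130, 160 and 205 in MEP (1.02, adjusted p = 0.181), and Ifitm3 had 243, 269 and 339 in CMP and 90.7, 173 and 160 in MEP (0.98, adjusted p = 0.311). Both were higher in each CMP library. Pecam1, an adhesion protein of endothelium that blood progenitors also carry, had 81.1, 56.1 and 97 CPM in CMP and 38.9, 13.3 and 0 in MEP (1.82, adjusted p = 0.275).

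Housekeeping groups held few calls, as did the tested genes as a whole (0.258% called by limma). Of 78 ribosomal protein genes 0 were called by limma (median -0.06), of 75 respiratory chain genes 0 (median -0.05) and of 20 ribosome biogenesis genes 0 (median -0.15). Among 13 glycolysis genes Pgam1 was called and the median was 0.43. Gapdh had 1249, 1560 and 1640 CPM in CMP and 1037, 1385 and 1185 in MEP (0.30, adjusted p = 0.68), which overlapped. On the authors' scale both the ribosomal protein and the respiratory chain median were 0.09, below the median of all genes on that scale (0.16), as they were with scaling to library totals.

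Transcripts of mature cells were present in single libraries. The summed level of mature neutrophil genes was 763, 628 and 816 CPM in CMP and 661, 825 and 28303 in MEP. In MEP replicate 3 the calgranulins S100a8 and S100a9 reached 6908 and 6144 CPM and the granule peptides Camp and Ngp 5551 and 4594. Of 10 tested neutrophil genes 0 were called by limma, against 0.258% of all tested genes. The median of these 10 moved from -1.37 to -0.17 without MEP replicate 3. MEP replicate 2 stood apart in class II, macrophage and dendritic cell genes, with 3582 CPM against 246 and 399 in the other MEP libraries and 357, 1055 and 622 in CMP. It held 1398 CPM of Cst3, 719 of H2-Aa and 599 of the class II chaperone Cd74. MEP replicate 3 also had 228 CPM of mature B cell genes, with 68.4 CPM of Cd79a, against 0 to 16.2 CPM in the other 5 libraries. T and NK cell genes summed to at most 26.6 CPM and eosinophil genes to at most 11.2 CPM in any of the 6 libraries.

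Without MEP replicate 2 limma called 20 genes, and without MEP replicate 3 it called 21. The granule list kept 6 called members either way, and the early erythroid list had 4 called members either way. Mpo and Elane were at 456 and 11.4 CPM in MEP replicate 3, within or below the other MEP libraries. The difference of S100a8 was -2.27 (adjusted p = 0.288), -0.01 without MEP replicate 3 and -3.56 (adjusted p = 0.0182) without MEP replicate 1. The part of these transcripts in the lysozyme and haptoglobin values was not tested.

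**Figure D4:**
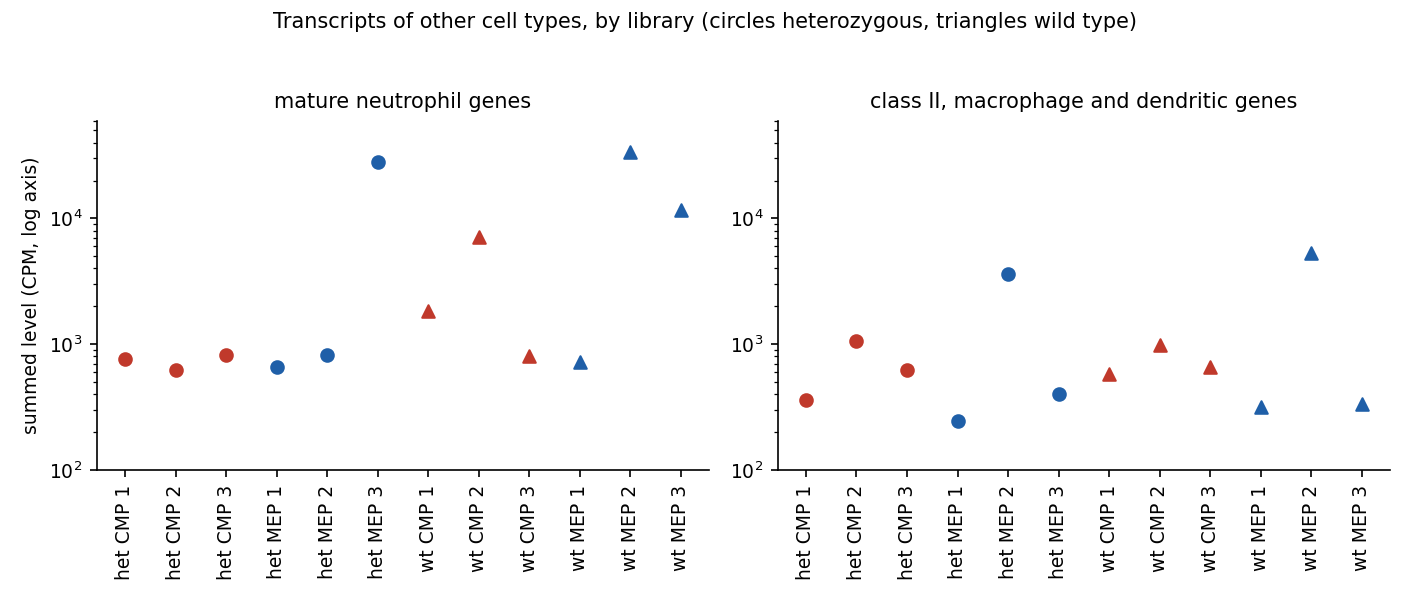
The summed level of mature neutrophil genes and of class II, macrophage and dendritic cell genes (CPM, log axis) in each of the 12 late progenitor libraries, circles for heterozygous and triangles for wild type. Heterozygous MEP replicate 3 (28303 CPM) stands apart for neutrophil genes and MEP replicate 2 (3582 CPM) for class II genes, while the 3 heterozygous CMP libraries hold 628 to 816 and 357 to 1055 CPM.

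The wild-type libraries allow the question whether the difference between CMP and MEP depends on the Mof genotype. They share no sample with the heterozygous contrast. On the log2 scale all 21 genes had the same direction in wild type, as had 55.5% of the 7121 genes tested in both genotypes. By mean CPM 20 did, the exception being Elane. Of the 11 genes higher in CMP, 9 separated the wild-type libraries the same way, against 6.12% of the 7121 genes. Of the 10 higher in MEP 5 did, against 5.46%. The wild-type fit called 6 of the 21 (Mpo, Ctsg, Plac8, H2afy, Car1 and Car2). In wild type alone limma called 10 of 7545 genes (0.133%), 8 higher in CMP (0.106%) and 2 in MEP (0.0265%). Across these 7121 genes the 2 sets of differences had a Pearson r of 0.22, and over the 21 called genes, which were chosen on one of the sets, an r of 0.96. These are descriptions across genes, which are not independent replicates.

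The interaction of genotype and population was called for 0 of 8023 genes by limma (0%; 317 at an unadjusted p under 0.05) and for 0 of 1908 by edgeR (85 unadjusted). Mature neutrophil genes summed to 33804 CPM in wild-type MEP replicate 2, to 11741 in its replicate 3 and to 7129 in wild-type CMP replicate 2. Wild-type MEP replicate 2 also held 5286 CPM of class II, macrophage and dendritic cell genes, 3543 of mature B cell genes and 400 of T and NK cell genes. The part of these transcripts in the wild-type values was not tested. Mpo differed by 2.56 in wild type and the interaction was -0.18 (SE 0.57, 95% interval -1.33 to 0.97, adjusted p = 0.995). Car1 had 431, 330 and 576 CPM in wild-type CMP and 1937, 1343 and 1827 in wild-type MEP. Its wild-type difference was -1.92 against -3.51 in heterozygous libraries, and the interaction of -1.58 (SE 0.34) did not pass (adjusted p = 0.129; 0.0853 to 1 over the alternatives). The wild-type groups overlapped for Elane, with 413, 277 and 78.5 CPM in wild-type CMP and 0, 0 and 781 in wild-type MEP (means 256 ± 168 and 260 ± 451, SD, n = 3 each; limma adjusted p = 0.767).

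Cd34 had the smallest interaction p of all genes. Wild-type CMP had 215, 290 and 170 CPM, and wild-type MEP had no count in any of 3 libraries. In counts this was 47 of 207865 against 0 of 194149, a 14.6-fold ratio with a floor of 3 counts over the MEP group. Wild-type MEP were therefore without detected Cd34 RNA, and heterozygous MEP were at 133 to 217 CPM. The interaction was -3.32 (SE 0.63, adjusted p = 0.0547), just outside the threshold. Over 20 alternatives its adjusted p ran from 0.0067 to 1, and in 6 of them it passed. They were RLE scaling (0.0473), a pseudocount of 0.5 (0.00887), no filter (0.0387), and the fits without wild-type MEP replicate 1 (0.0296), wild-type MEP replicate 2 (0.0067) or heterozygous CMP replicate 2 (0.0398). In this interaction genotype is also pool, and the 2 cannot be told apart for a shift that differs between the populations.

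**Figure D5:**
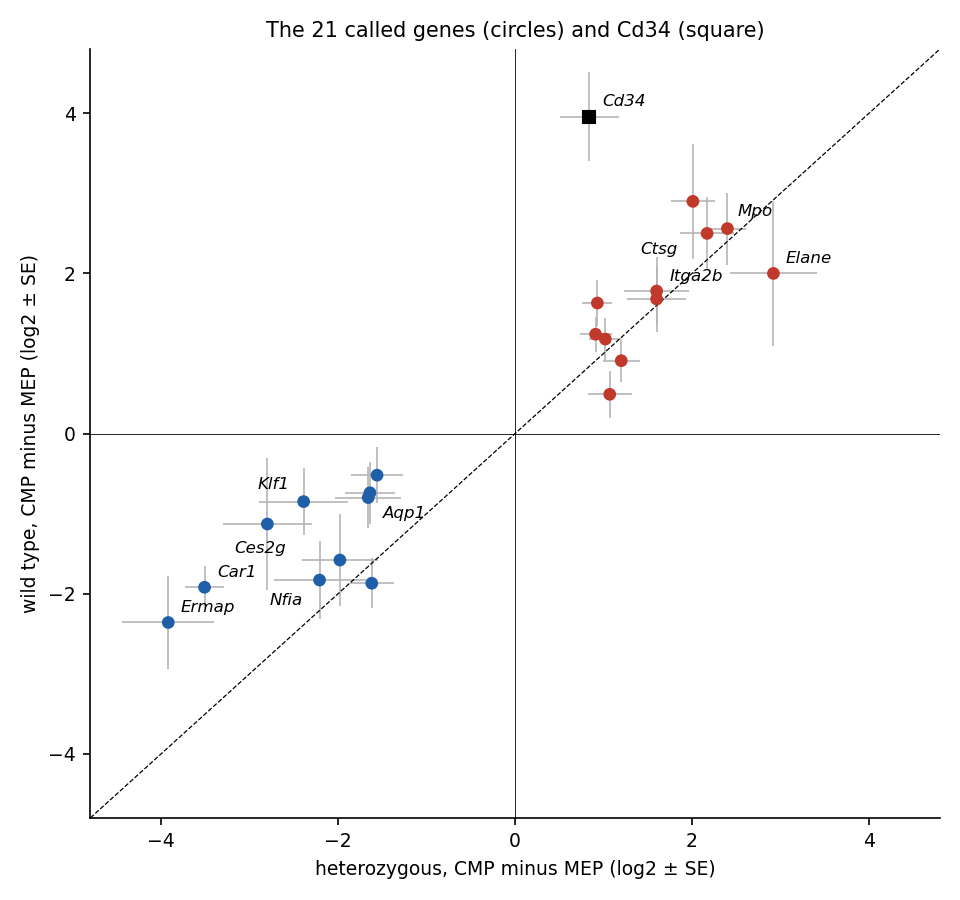
The difference CMP minus MEP (log2 ± SE, n = 3 libraries per group) in heterozygous libraries on the x axis and in wild-type libraries on the y axis, for the 21 called genes (circles) and Cd34 (square), with a dashed line of equality. The circles lie at the lower left and upper right, Car1 (-3.51 and -1.92) lies above the line and Cd34 (0.84 and 3.96) is the point farthest above it.

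Mof RNA itself gave no information on the contrast. Kat8 had 32.5, 0 and 8.08 CPM in CMP and 0, 13.3 and 11.4 in MEP, or 3 counts against 2, a ratio of 1.31 (exact 95% interval 0.15 to 15.7, counting error only). It fell below the filter, and a difference was not detectable at this depth. Of 11 tested members of the MSL and NSL complexes, in which Mof acts, 0 were called by limma, and the median was 0.03. Limma called 0.258% of all tested genes, so a count of 0 does not set these members apart. Msl1, the scaffold of MSL, had 227, 202 and 137 CPM in CMP and 130, 39.9 and 160 in MEP (0.86, adjusted p = 0.565), which overlapped. The summed level of the complexes was 1379, 1077 and 1099 CPM in CMP and 998, 1025 and 1026 in MEP.

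Some genes named here share their position with another gene, and the sources used here do not say whether strand was used in counting. Mpo overlaps Gm11505, Prtn3 overlaps Plppr3, H2afy overlaps Gm47071, Tubb4b overlaps Fam166a, Nfia overlaps E130114P18Rik, Cd34 overlaps Gm16897, Myb overlaps Gm26577 and Kat8 overlaps Prss8, all on the opposite strand. On the same strand, Car1 overlaps the pseudogene Gm16399, Itga2b overlaps Gm23563, Irf8 overlaps Gm20388 and Msl1 overlaps Casc3, with Gm12359 opposite. Celf2 overlaps Gm10855, Gm10115 and Gm26315 on its own strand and Gm13389, Gm37340, Gm26565 and Gm24340 on the other. For these genes counts of the partner cannot be told apart from their own.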

How the data were processed

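RNA of 15 sorted cells per library was measured by CEL-Seq2. Reads were aligned with BWA 0.6.2-r126 to mm10, per the submitters' processing notes. How reads were counted, which annotation was used and how molecular identifiers were treated was not given in the sources used here. What the authors deposited is a signal for each gene: they divided counts by 1 size factor per library, as read from the values. Each column divided by its smallest positive value gave whole counts for 100% of values (within 0.01 counts). Populations are named by the tables, and pool and genotype by the columns and labels. The tables hold 23538 genes, 55 symbols stand on more than 1 line, and the 92 spike-in rows were left out where present. Spike-in counts were 1991, 2656 and 3027 in the heterozygous CMP libraries and were not available for the heterozygous MEP libraries. The wild-type MEP table has 92 rows without names, and its names were shifted against its values. They were realigned to the order of the other tables. This raised the rank correlation with wild-type CMP (across genes) from 0.352 to 0.902.

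Counts of the 6 heterozygous libraries were scaled to their median total of 82433. Genes with a mean scaled count of at least 1 were tested on log2(scaled count + 1) with limma 3.58.1 in R 4.3.3 (trended prior variance, two-sided, Benjamini-Hochberg at 0.05). The prior weighed 51.1 degrees of freedom against 4 residual ones, so an SE comes mostly from the trend over genes. A fold change on this scale understates the change of low genes. The interaction used 12 libraries. Alternatives were other scalings, pseudocounts, filters and samples in the fit, each library left out, edgeR 4.0.16 (quasi-likelihood, common dispersion 0.0219) and DESeq2 1.42.0 (20496 genes without an adjusted p). Exact 95% intervals of count ratios cover counting error only. No set test was run.

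The text names Mpo, Car1, Cd34 and Kat8, up to 12 called genes in each direction whose groups do not overlap, and up to 4 called or 2 most abundant members per list. Others are markers, sorting antigens or list members chosen after their values were seen. The comparison, its members and the gene lists were chosen with earlier results of these data known. Gene positions follow GENCODE M21 (mm10).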

Additional observations from a re-analysis of the deposited data

How the results depend on the processing

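Against 21 genes by limma, 36 were called on the deposited scale, 35 with a pseudocount of 2, 45 with no filter on low values, 8 in the fit of 12 late progenitor libraries, 0 in the fit of all 36 libraries (26 at an unadjusted p under 0.05) and 13 by DESeq2. Leaving out 1 library gave 13 to 26 genes, the lowest without heterozygous CMP replicate 3. The interaction count of 0 became 1 with RLE scaling, with a pseudocount of 0.5 and with no filter, and 0 to 2 without 1 library. The cause was not tested. Over 17 alternatives the called genes kept their direction in all 353 comparisons and their call in 266. Sec61b lost its call in 11, Itga2b in 10, Nfia in 9 and Blvrb in 8, while Mpo, Ctsg, Celf2, Car1, Car2 and Ermap lost it in the fit of all 36 libraries alone. Among 67 genes not called, 36 gene and setting pairs were called. No paired analysis was possible because the columns carry running numbers and the 2 populations share none of them.

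Differences that turned in sign, all of genes not called, were as follows. By DESeq2 Hcfc1 was -0.02 and Irf8 0.36, by edgeR Hcfc1 was -0.02 and Irf8 0.44, with RLE scaling Hcfc1 was -0.00 and with a pseudocount of 0.5 Flt3 was -0.06. On the deposited scale Atp5a1 was 0.15, Irf8 0.07, Myb 0.08, Npm1 0.08, Rpl41 0.10 and Rps12 0.14. With 1 library left out, the lowest and highest values lay on both sides of 0 for 20 genes. They were -0.05 and 0.81 for Lepr, -0.21 and 0.49 for Lmo2, -0.05 and 0.32 for Myc, -0.01 and 0.34 for Ftl1, -0.17 and 0.36 for Mcm7, -0.09 and 0.30 for Atp5b, -0.14 and 0.22 for Hcfc1, and -0.11 and 0.15 for Atp5a1. For Rps12 they were -0.06 and 0.07, for Rpl41 -0.10 and 0.02, for Npm1 -0.17 and 0.02, for Myb -0.21 and 0.07, for Irf8 -1.02 and 0.83, for Gpx1 -0.42 and 0.14, and for Flt3 -0.59 and 1.30. Genes of other cell types had -1.04 and 0.69 (Cst3), -1.01 and 0.17 (Cd52), -2.83 and 1.63 (S100a9), -2.42 and 0.03 (H2-Aa) and -1.27 and 1.52 (Lyz1). The 3 libraries per group limit what can be called. Kat8 rests on 3 and 2 counts.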

Other observations

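Some genes had no count in one population and a count in every library of the other. Of the 11373 genes with a count in the 6 heterozygous libraries, 40 were at 0 in CMP and present in all 3 MEP libraries. Another 74 were at 0 in MEP and present in all 3 CMP libraries, which held more counts in total (274512 against 239974). Besides Mt2, the genes with the most counts on the MEP side were Myh10, Kcng2 and Slc38a5. Myh10, a nonmuscle myosin, had 10, 2 and 1 counts (4.96-fold). The potassium channel subunit Kcng2 had 5, 5 and 2 (4.58-fold), and the amino acid transporter Slc38a5 had 6, 2 and 2 (3.81-fold). The iron exporter Slc40a1, ferroportin, had 5, 1 and 2 counts in MEP (3.05-fold). On the CMP side Ralgapa2, a subunit of a Ral GTPase activator, had 2, 2 and 7 counts (3.21-fold). The actin regulator Cfl2 had 3, 2 and 5 (2.91-fold). Each ratio sets the group at 0 to a floor of 3 counts and takes the other group's counts as exact, so it is not a lower limit. The genes were chosen because 1 group was at 0. Limma called 0 of these named genes (adjusted p from 0.175 to 0.504). In the wild-type libraries MEP and CMP held 28 and 2 counts of Mt2, 7 and 3 of Myh10, 6 and 8 of Kcng2, 8 and 3 of Slc38a5 and 11 and 5 of Slc40a1. Wild-type CMP and MEP held 3 and 3 counts of Ralgapa2 and 4 and 3 of Cfl2. None of the 7 genes was thus at 0 in wild type on the side where it was at 0 in heterozygous libraries.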
